A study of Homo sapiens with 14 samples.

Results

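Leucine, serine and selenocysteine tRNA genes were examined in T47D, an established breast cancer cell line that carries the oestrogen and progesterone receptors. The set holds the 53 nuclear genes of RefSeq biotype tRNA on chromosomes 1 to 22 and X whose symbol begins with TRL- (leucine), TRS- (serine) or TRU- (selenocysteine), out of 429 nuclear tRNA genes. The 7 TRL-CAA genes were left out. There were 25 leucine, 26 serine and 2 selenocysteine genes. Chromatin was immunoprecipitated and sequenced with an antibody to POLR3A, the large catalytic subunit of RNA polymerase III, or with one to PR, the progesterone receptor. Cells of both arms grew in the same serum- and insulin-containing medium and were then treated for 1 h with progesterone (P4) or with its ethanol vehicle. Each antibody and treatment had 3 replicate libraries, each treatment had 1 pooled input, and the replicates of a group share 1 deposited peak list. A count therefore has no spread over replicates, no test over samples could be made, and the results are those of 1 cell line.

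The lists held 29161 POLR3A regions under vehicle and 47904 under P4, and 38933 PR regions under vehicle and 111515 under P4, on chromosomes 1 to 22 and X. A gene was counted as occupied when any base of a region fell in the gene or in a margin of 100 bp beyond each end. The depth of the libraries is unknown. The −log10 q and the fold enrichment over background are the authors' values for a region and order regions only within their own list. A percentile is the place of a region among all regions of its list by −log10 q.

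RNA polymerase III transcribes tRNA genes from a promoter inside the gene. Its A box and B box are bound by TFIIIC, which places TFIIIB just upstream so that the polymerase can start, and transcription ends at a run of T after the gene. Leucine, serine and selenocysteine tRNAs share a long variable arm, which seryl-tRNA synthetase reads to recognise its tRNAs. The selenocysteine tRNA is charged first with serine, which PSTK and SEPSECS then convert on the tRNA, and its gene differs from the others in using upstream elements of the kind found at U6 genes. In a symbol such as TRL-AAG2-4, the letters after the hyphen are the anticodon, the number after them names a set of genes with the same mature tRNA sequence, and the last number is the copy.

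Windows of the RefSeq promoter table (GRCh38.p14) happen to reach 2 copies of the TRL-AAG2 set, and they are shown because they hold the internal promoter of 1 copy whole and the B box of the other. TRL-AAG2-2 (chr6:28943622-28943703, minus strand) lies whole within the window of LINC01556, and 63 of the 82 bases of TRL-AAG2-4 (chr16:22297140-22297221, plus strand) lie within that of POLR3E, a gene that itself encodes a subunit of RNA polymerase III. The strand was read from the sequence, as the one that carries the B box. Capitals mark the A box, the B box and the first run of 4 or more T after the gene. Each run is 300 bases, 5′ to 3′ on the strand of the tRNA gene, and the gene occupies bases 131 to 212 of the first and bases 1 to 63 of the second.
TRL-AAG2-2, chr6:28943534-28943833, minus strand: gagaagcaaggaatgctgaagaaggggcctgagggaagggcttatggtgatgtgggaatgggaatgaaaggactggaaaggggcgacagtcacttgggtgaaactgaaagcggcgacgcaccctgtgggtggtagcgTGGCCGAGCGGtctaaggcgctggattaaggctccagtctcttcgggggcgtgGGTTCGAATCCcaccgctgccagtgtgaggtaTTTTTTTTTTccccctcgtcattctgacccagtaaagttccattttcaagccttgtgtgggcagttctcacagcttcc
TRL-AAG2-4, chr16:22297159-22297458, plus strand: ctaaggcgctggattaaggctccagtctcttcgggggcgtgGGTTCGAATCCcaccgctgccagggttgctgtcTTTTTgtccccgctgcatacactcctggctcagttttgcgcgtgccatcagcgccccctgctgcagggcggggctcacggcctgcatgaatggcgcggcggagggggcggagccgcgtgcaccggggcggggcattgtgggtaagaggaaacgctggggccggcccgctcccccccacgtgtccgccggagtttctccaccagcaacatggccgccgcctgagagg

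The 63 bases present in both were identical at 63 positions. In TRL-AAG2-2 the A box was at bases 8 to 18 of the gene and the B box at bases 61 to 71, and the B box of TRL-AAG2-4 was at the same bases. The run of T began 10 bases after TRL-AAG2-2 and was 10 bases long, and it began 11 bases after TRL-AAG2-4 and was 5 bases long. The A box of TRL-AAG2-4 lies outside the window, so of the internal promoter only the B box was compared. The B box consensus, with any base at its variable position and on either strand, was in 29 of the 35116 windows of the promoter table, or 0.0826%. The A box, searched by its usual degenerate consensus on either strand, was in 21.7% of them, and TTTT in 71.4%.

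POLR3A was at 44 of the 53 genes under vehicle, 83.0% (95% Wilson interval 70.8 to 90.8), where 82.3% of all 429 tRNA genes had it. Under P4 it was at 46 genes, 86.8% (75.2 to 93.5), beside 81.8% of all tRNA genes. Both shares are close to those of tRNA genes at large. In the full lists, the 44 genes occupied under vehicle were all occupied under P4. By amino acid, POLR3A was at 18 of 25 leucine genes in each list, at 25 of 26 serine genes under vehicle and 26 under P4, and at 1 and 2 of the 2 selenocysteine genes. All 7 genes without a POLR3A region in either list decode leucine, and they had no PR region either. Most of these 7 are copies of the TRL-CAG1 set in 1 repeated stretch of 29.7 kb. Among all tRNA genes, 14.7% were in no list.

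**Figure D1:**
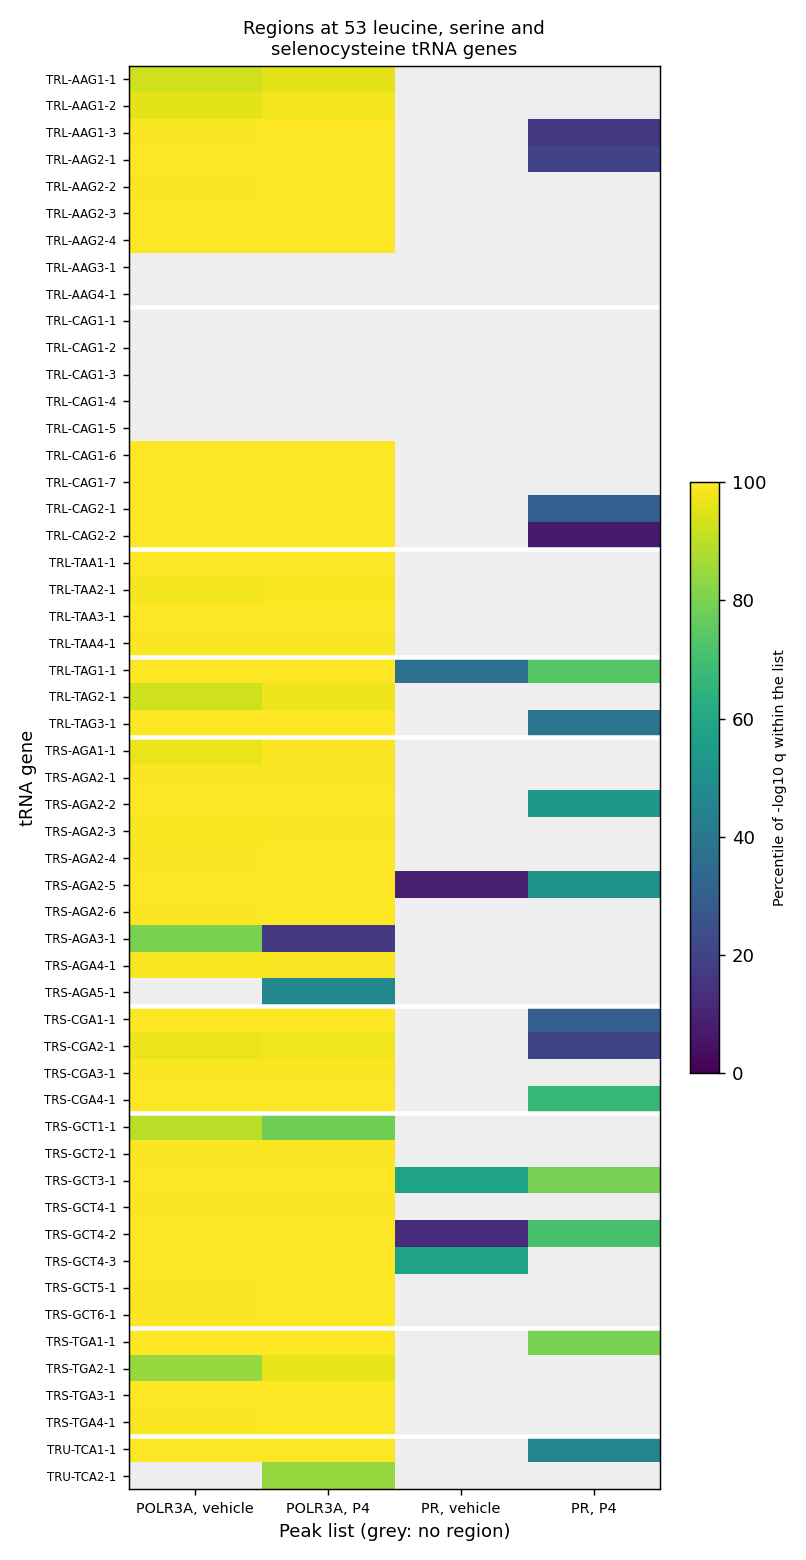
Each row is 1 of the 53 tRNA genes, grouped by anticodon, and each column a peak list; the colour is the percentile of −log10 q of the region at the gene within that list, and grey marks no region. The POLR3A columns are filled for 44 and 46 genes, mostly near percentile 100, whereas the PR columns hold 5 and 15 genes at lower percentiles.

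Regions at these genes stood high in the POLR3A lists. Their median −log10 q was 426.1 under vehicle and 418.3 under P4, beside 353.9 and 354.2 over all tRNA genes with a region and 3.53 and 3.22 over all regions of the lists. Of the 53 genes, 36 had a region among the 500 strongest of each list, and 18 among the 100 strongest. These are counts of genes, some of which share a region, and were not made over all tRNA genes. A high place is not particular to the set. The median percentile over all tRNA genes with a region was 99.5 under vehicle and 99.7 under P4, beside 99.6 and 99.7 for the set. The 3 strongest regions of the vehicle list lay at genes of the set, at TRS-GCT4-2, at TRL-AAG2-4, and at the pair TRL-CAG2-1 and TRL-CAG2-2, which share a region. In the P4 list the strongest region of the set, at TRL-TAG3-1, ranked 4, and 1 gene of the set was among the 10 strongest, against 4 under vehicle. Over the 44 genes with POLR3A in both lists, the order of −log10 q was much the same (Spearman's rho 0.97 across genes, some of which share regions with neighbours or with each other).

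Within the leucine genes the values spanned nearly the whole range. TRL-AAG2-4, upstream of the POLR3E start, had a −log10 q of 625.0 and a fold enrichment of 98.9 under vehicle, and 511.8 and 56.3 under P4. TRL-AAG1-1 (chr5:181097474-181097555) had the lowest value of its anticodon, 11.6 under vehicle and 12.1 under P4. The summit of that region, however, lay 401.5 bp from the midpoint of TRL-AAG1-1 under vehicle, and the tRNA gene nearest to it was TRV-CAC1-2, a valine gene. For CAG, the adjoining TRL-CAG2-1 (chr16:57299951-57300033) and TRL-CAG2-2 (chr16:57300480-57300562) shared regions with values of 621.0 under vehicle and 560.3 under P4, with the summits at TRL-CAG2-2. TRL-CAG1-7 (chr6:26521208-26521290, within the span of the non-coding gene LOC107986583) had the lowest value among occupied CAG genes, 504.4 and 499.5. Occupied CAG genes were thus all strong.

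TRL-TAA3-1 (chr11:59551755-59551837, within the span of LOC102723575) had the highest vehicle value of the TAA genes, 543.0, and 508.1 under P4, where TRL-TAA1-1 was higher at 542.6. The regions at TRL-TAA3-1 had their summits 1138 and 1168 bp away, nearest to the valine gene TRV-TAC1-1. TRL-TAA2-1 (chr6:27721119-27721201) had 45.5 and 40.4, the lowest of the 4 TAA genes in the vehicle list, with the summits 2 and 3 bp from its midpoint. Among the 3 TAG genes, TRL-TAG3-1 (chr16:22195711-22195792) had 582.7 and 583.7 and TRL-TAG2-1 (chr14:20625370-20625451) 11.6 and 17.7. Values thus differed widely within 1 anticodon.

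Serine genes showed the same breadth. TRS-GCT4-2 (chr15:40593825-40593906, outside other genes) was the single strongest region of the POLR3A vehicle list, with a −log10 q of 629.5 and a fold of 99.3, and had 564.1 and 71.1 under P4. TRS-GCT1-1 (chr6:27097306-27097387) was the weakest of the 8 GCT genes in both lists, with 8.91 and 4.90. For AGA, TRS-AGA2-5 (chr8:95269657-95269738, within the span of CFAP418-AS1) had 544.2 and 454.5, and TRS-AGA3-1 (chr6:27532208-27532289) had 5.96 and 2.21. TRS-AGA3-1 stood at percentile 79.8 of the vehicle list and 17.1 of the P4 list, the lowest place of any occupied gene of the set in each list.

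TRS-CGA4-1 (chr12:56190364-56190445) had the highest vehicle value of the CGA genes, 473.0, and 475.0 under P4. TRS-CGA2-1 (chr6:27209849-27209930) had the lowest, 25.2 and 22.4. Among TGA genes, TRS-TGA3-1 (chr6:26312596-26312677) had 524.8 and 466.6, with the summits nearest to the initiator methionine gene TRX-CAT1-3, and TRS-TGA2-1 (chr6:27545689-27545770) had 6.97 and 12.7. Values therefore differed widely within each of the 4 serine anticodons, although the lowest CGA gene still stood at percentile 97.1 of the vehicle list.

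**Figure D2:**
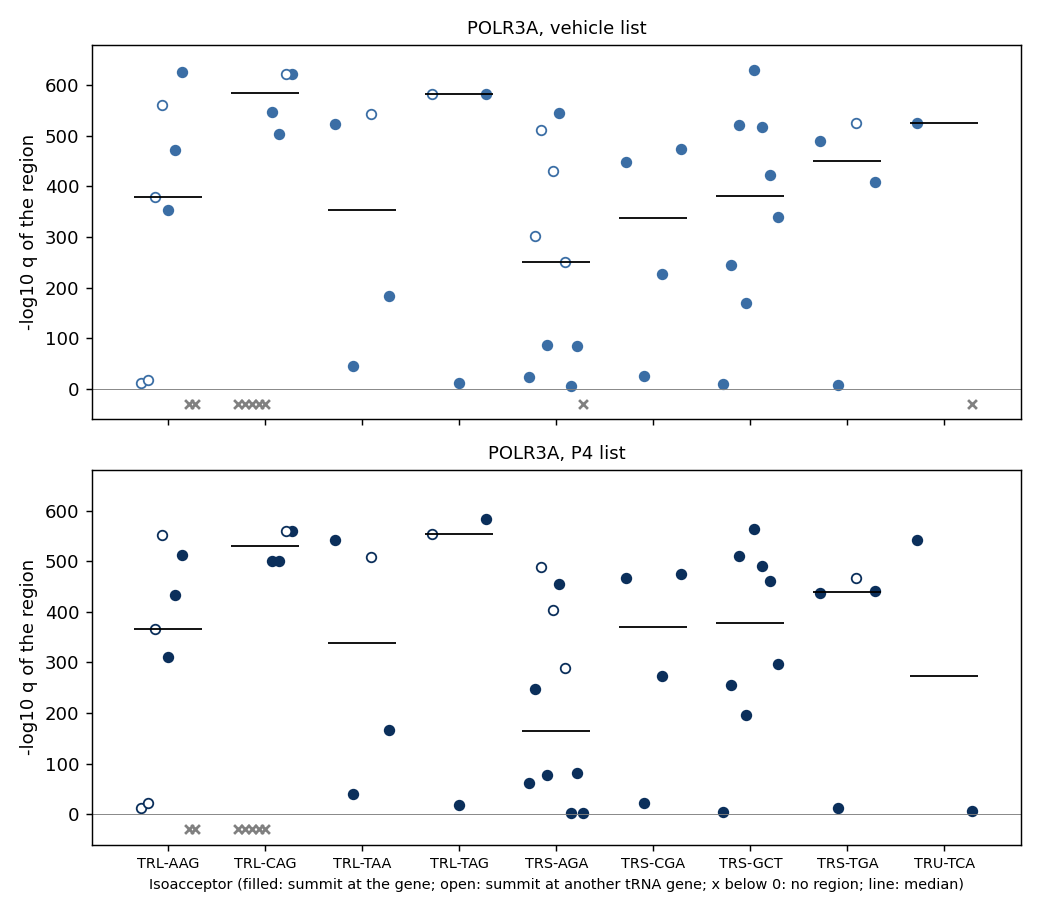
Each point is the −log10 q of the POLR3A region at 1 tRNA gene, by anticodon, under vehicle (top) and P4 (bottom); filled points have the summit within 100 bp of the gene, open points at another tRNA gene, crosses have no region, and lines are medians of the occupied genes. TRL-CAG is split between 5 genes without a region and 4 at 499.5 or more, and the other leucine and serine anticodons spread from low to high values.

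TRS-AGA5-1 and TRU-TCA2-1 were the only genes of the set with POLR3A under a single treatment, P4 in both cases, where 2.8% of all tRNA genes had it under P4 alone and 3.26% under vehicle alone. TRS-AGA5-1 (chr7:149608376-149608447, within the span of the pseudogene ZNF767P) is 72 bp long, the shortest of the set, and its region had a −log10 q of 3.17, with the summit 83.5 bp from the midpoint. TRU-TCA2-1 (chr22:44150657-44150740, within the span of the protein-coding gene PARVB) had 5.60, with the summit 25.5 bp from the midpoint. Both values are far below those of most occupied genes. With both POLR3A lists cut to 29161 regions, 45 genes of the set were left in the P4 list. TRS-AGA5-1 and TRU-TCA2-1 both stayed, with P4 regions at ranks 24798 and 7594. The gene that dropped out was TRS-AGA3-1, at rank 38885, which then had POLR3A under vehicle alone.

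TRU-TCA1-1 (chr19:45478601-45478687), the other selenocysteine gene, had strong POLR3A in both lists, 524.7 under vehicle and 542.6 under P4. Its summits lay 41 and 40 bp from the midpoint, near 1 end of the 87-bp gene, which put them among the farthest of the genes with the summit at the gene, whose median was 7 bp under vehicle with a maximum of 41.5 bp. Other genes with upstream promoter elements had POLR3A as well. POLR3A was at 9 of 9 listed genes of that kind in each list (RNU6-1, RNU6-2, RNU6-7, RNU6-8, RNU6-9, RNU6ATAC, RN7SK, RPPH1 and RMRP). The −log10 q of their regions spanned 148.5 to 616.5 under vehicle, and 97.6 to 586.3 under P4. Both ranges also hold the medians over all tRNA genes with a region, 353.9 and 354.2. POLR3A was at 82.3% and 81.8% of all tRNA genes.

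The genes without any region were TRL-AAG3-1 (chr6:28989002-28989083), TRL-AAG4-1 (chr6:28478623-28478704), and 5 copies of the TRL-CAG1 set. TRL-CAG1-1 to TRL-CAG1-5 stand on chromosome 1 between 161441533 and 161471205, 29.7 kb in all, spaced by 7418, 7381, 7410 and 7381 bp. Each had its nearest POLR3A region 619 to 1506 bp away under vehicle and 1431 to 1527 bp away under P4. By contrast, TRL-CAG1-6 (chr1:161530342-161530424), 59.2 kb beyond TRL-CAG1-5, had 547.2 and 501.0, and TRL-CAG1-7 on chromosome 6 was occupied as given above. The same mature sequence was thus found with no region and with some of the strongest regions of the list. How reads that match several copies were placed is not given. A missing region at these 5 repeated copies therefore cannot be read as absence of POLR3A.

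Other tRNA genes of that repeated stretch were partly occupied. All 4 TRE-CTC and all 4 TRG-GCC genes there had POLR3A in both lists, at −log10 q of 37.0 to 111.3 in the vehicle list and 16.7 to 78.8 in the P4 list. Of the 5 TRD-GTC genes 3 had it under vehicle, at 5.14 to 6.64, and 0 under P4, and of the 5 TRG-TCC genes 2 and 1 had it. The highest TRG-TCC value equalled the highest TRE-CTC value in each list, 87.7 under vehicle and 45.3 under P4. Whether these are shared regions was not tested. None of these 18 genes had PR in either list, where 12.8% of all tRNA genes had it under vehicle and 26.1% under P4. The unknown placing of reads limits what a missing region means at these genes too.

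Copies also differed in value in 4 of the other 5 sets, while those of TRL-CAG2 share a region and so a value. In 1 of the 4, TRL-AAG1, the summits lay at neighbouring valine genes, so its values cannot be assigned to the leucine copies. The 53 genes fall into 34 sets, of which 6 hold more than 1 copy, 25 genes in all. The 6 TRS-AGA2 copies had vehicle values from 85.8 (TRS-AGA2-3, chr6:27495814-27495895) to 544.2 (TRS-AGA2-5), both with the summit at the gene itself. TRS-GCT4-1 (chr6:28597340-28597421, within the span of SCAND3) had 170.5 under vehicle and 195.7 under P4, while TRS-GCT4-3 (chr17:8186866-8186947) had 516.5 and 491.4 and TRS-GCT4-2 had the values above. In the TRL-AAG2 set, TRL-AAG2-2, whose sequence is printed above, had 353.9 and 310.3, against 625.0 and 511.8 at TRL-AAG2-4. Copies of these 3 sets therefore had different places in the lists. Whether differences between copies exceed replicate error cannot be told from 1 list per group.

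**Figure D3:**
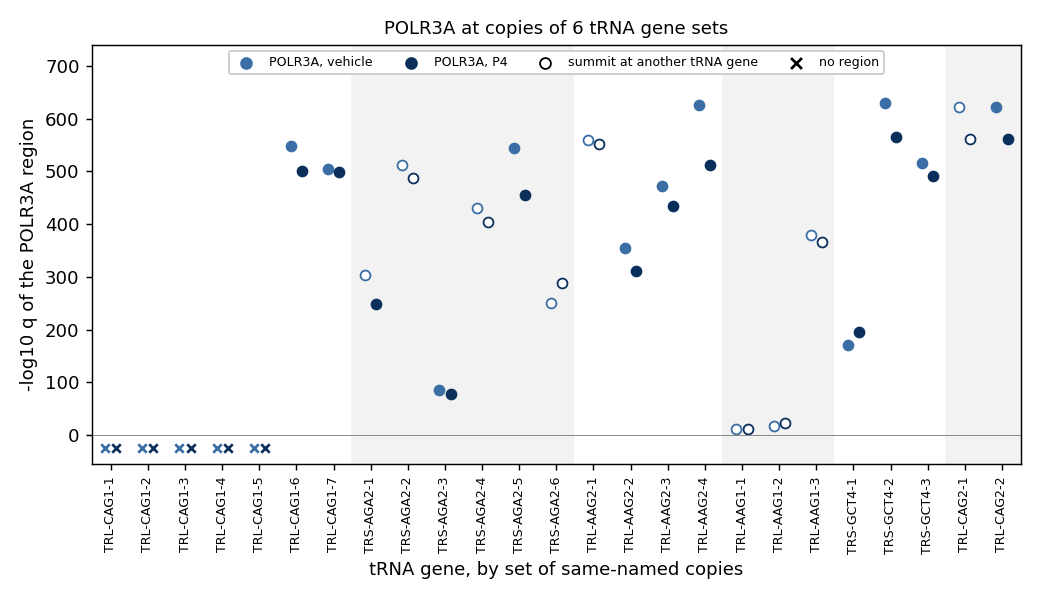
The −log10 q of the POLR3A region is shown for the 25 genes of the 6 sets with more than 1 copy, light for vehicle and dark for P4; open symbols have the summit at another tRNA gene and crosses have no region. Copies of TRL-CAG1 lie either at crosses or near 500, and TRS-AGA2 copies with the summit at the gene run from 85.8 to 544.2 under vehicle.

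Many of these genes stand close to other tRNA genes, 23 of 53 within 1 kb, which bears on what a region at a gene means. Under vehicle the region had its summit within 100 bp of the gene at 32 of 44 genes, and at the other 12 it was nearest to a different tRNA gene, at most 32.5 bp from that gene's midpoint. Under P4 the counts were 35 of 46 and 11. TRL-AAG1-1, TRL-AAG1-2 and TRL-AAG1-3 all lay beside valine CAC genes, TRV-CAC1-2, TRV-CAC1-3 and TRV-CAC1-4, which held the summits in both lists. TRS-AGA2-2 and TRS-AGA2-4 lay beside the aspartate genes TRD-GTC2-6 and TRD-GTC2-7, which likewise held them. A region lists 1 summit, so these 12 genes had no summit of their own, and their POLR3A values cannot be told apart from those of their neighbours.

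At TRS-AGA2-1 (chr6:26327589-26327670, within the span of LOC101928743) the assignment differed between the lists. Under vehicle its region was 965 bp wide with the summit at the arginine gene TRR-ACG1-1, 556.5 bp away, and under P4 it had a region of 372 bp with the summit 28.5 bp from its own midpoint. Where the summit was at the gene, it was central, a median of 7 bp from the midpoint under vehicle and 9.5 bp under P4. The median width of the POLR3A regions at these genes was 739 bp and 651 bp, against 280 and 276 bp over the whole lists.

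**Figure D4:**
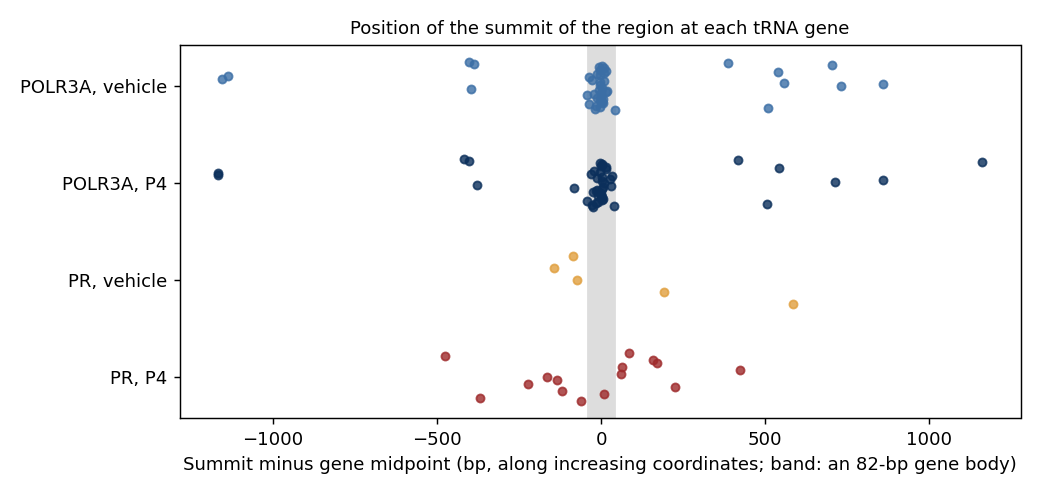
The horizontal axis is the distance in bp from the midpoint of each tRNA gene to the summit of its region, with the 4 lists on the vertical axis and the grey band showing the extent of an 82-bp gene. POLR3A summits stack on the gene body apart from those at neighbouring tRNA genes and that of TRS-AGA5-1 under P4, 83.5 bp away, and PR summits scatter on both sides with 1 of 15 within the band under P4.

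PR, the hormone receptor, was at 5 of the 53 genes under vehicle, 9.43% (95% Wilson interval 4.10 to 20.3), beside 12.8% of all tRNA genes. Under P4 it was at 15 genes, 28.3% (18.0 to 41.6), beside 26.1%. Again the shares are near those of all tRNA genes. PR was found under P4 and not under vehicle at 11 genes, where 15.2% of all tRNA genes were, and under vehicle and not P4 at 1 gene, where 1.86% were. The PR list under P4 is 2.86 times as long as that under vehicle. With both cut to 38933 regions, PR was at 5 genes under each treatment, 2 under P4 alone and 2 under vehicle alone. A difference in list length and one in PR at these genes cannot be told apart here.

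All 16 genes with PR in either list had POLR3A in both, as did 119 of the 120 tRNA genes with PR, 99.2%. Each PR region overlapped the POLR3A region at the gene under the same treatment, in 5 of 5 cases under vehicle and 15 of 15 under P4. Every POLR3A region at these genes touched the gene itself, and a PR region counted only within 100 bp of it. Such overlap therefore largely follows from the rule for counting. A further 28 genes had POLR3A in both lists and PR in neither, and 51.3% of all tRNA genes were in that state. Genes with PR under P4 had a median POLR3A −log10 q of 510.0 in the P4 list (lowest 22.4, highest 583.7, n = 15), and the 29 with POLR3A in both lists and no PR under P4 had 272.5 (2.21 to 542.6). The ranges overlap. Other tRNA genes gave 520.6 and 165.8 for the same classes.

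PR regions here ranked from low to fairly high. Their median percentile was 36.4 under vehicle (8.63 to 58.4) and 46.5 under P4 (7.26 to 79.7), beside medians of 31.2 and 59.8 at all tRNA genes with PR. No gene of the set had a PR region among the 500 strongest of either list. The highest −log10 q was 7.20 under vehicle and 15.3 under P4, against medians of 5.75 and 4.87 for all PR regions. The POLR3A regions at these genes had median percentiles of 99.6 and 99.7.

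Genes with PR in both lists were TRS-GCT3-1, TRS-GCT4-2, TRS-AGA2-5 and TRL-TAG1-1, 4 of 53, where 11% of all tRNA genes were in all 4 lists. TRS-GCT3-1 (chr11:66348120-66348201, within the span of the non-coding gene B4GAT1-DT) had a PR −log10 q of 7.20 (vehicle) and 15.0 (P4), folds of 4.30 and 5.89, and POLR3A values of 521.4 and 510.0. TRS-GCT4-2 had PR values of 2.61 and 9.17, with the summit 191.5 bp from the midpoint under vehicle and 8.5 bp under P4. TRS-AGA2-5 had 2.28 and 5.08, with summits 144.5 and 164.5 bp away. At all 3 genes the PR summits lay within 200 bp of the midpoint in both lists.

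TRL-TAG1-1 (chr17:8120314-8120395) had PR values of 4.24 and 10.5, with summits 84.5 and 63.5 bp from the midpoint on opposite sides. The POLR3A regions there, at 582.4 and 554.3, were 2861 and 2465 bp wide, with their summits at the lysine gene TRK-TTT3-5. TRL-TAG1-1 stands 1438.5 bp from the start of ALOXE3, a lipoxygenase gene. It was the 1 leucine gene of the set with PR under vehicle.

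The PR regions at TRS-GCT3-1 reached the promoter window of B4GAT1-DT, and the window is shown for that reason. The start of B4GAT1-DT lies 169.5 bp from the tRNA gene's midpoint. The PR region covered 102 of the window's 300 bases under vehicle and 171 under P4, with summits 97 and 49 bases after the start. The vehicle summit lay beyond the end of the window, 72.5 bp from the tRNA gene's midpoint, and the P4 summit was at the window's last base. The POLR3A summits were 174 and 170 bases after it, over the tRNA gene. Capitals mark the bases from the start onward.
B4GAT1-DT, chr11:66347741-66348040, plus strand: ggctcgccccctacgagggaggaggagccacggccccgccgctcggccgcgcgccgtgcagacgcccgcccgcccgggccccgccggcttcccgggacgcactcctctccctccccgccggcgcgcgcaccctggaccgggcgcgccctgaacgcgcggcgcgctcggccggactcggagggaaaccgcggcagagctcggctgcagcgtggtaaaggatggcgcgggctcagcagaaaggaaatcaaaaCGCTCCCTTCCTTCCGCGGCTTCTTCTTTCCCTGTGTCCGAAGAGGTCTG

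None of 4 motifs searched on both strands was in this window or in those of LINC01556 and POLR3E. They were TGTTCT, the half-site of the progesterone response element, in 14.8% of all windows of the promoter table, the full palindromic site with 3 spacer bases in 0.390%, TATAAA in 11.5% and TATATA in 3.99%. The absence of these letters from a window of 300 bases says nothing of the receptor elsewhere in the region.

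Of the 11 genes with PR under P4 alone, 5 were serine, 5 leucine and 1 selenocysteine. TRS-TGA1-1 (chr10:67764503-67764584) had the highest PR value of the set, 15.3 with a fold of 5.68, with the summit 368.5 bp from the midpoint and the region ending 26 bp short of the gene. TRS-CGA4-1 had 7.82, and the other 9 ranged from 2.09 at TRL-CAG2-2 to 5.25 at TRS-AGA2-2. TRU-TCA1-1 had 4.59, with the summit 61 bp from the midpoint. TRS-TGA1-1 and TRS-CGA4-1 were the 2 that stayed with lists of equal length. Most calls under P4 alone thus had low scores.

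TRS-GCT4-3 was the gene with PR under vehicle alone, at a −log10 q of 7.14, but its region began 65 bp from the gene and had the summit 583.5 bp from the midpoint, nearest to the isoleucine gene TRI-AAT5-5. In the P4 list a PR region with a value of 5.39 lay 199 bp from the gene, just outside the margin. Among the PR calls under P4, 11 regions touched the gene and 4 lay 15 to 99 bp from it, and a further 5 genes had one 125 to 402 bp away. TRL-AAG2-1 (gap of 99 bp) and TRL-AAG2-2 (gap of 125 bp) fell on either side of the margin.

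PR summits were not centred on the genes as POLR3A summits were. The median distance from the midpoint was 144.5 bp under vehicle (5 genes, 72.5 to 583.5 bp) and 157 bp under P4 (15 genes, 8.5 to 474.5 bp). At the 10 genes where the POLR3A summit was at the gene and PR was present under P4, the summits of the 2 antibodies were a median of 164 bp apart, from 7 to 419 bp.

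PR calls were unevenly spread over the chromosomes. Of the 53 genes, 24 are on chromosome 6 and 29 on 13 other chromosomes. Under P4, PR was at 2 of the 24 on chromosome 6, 8.33% (95% Wilson interval 2.32 to 25.8), TRS-CGA2-1 and TRS-AGA2-2, where 11% of all tRNA genes on that chromosome had it. It was at 13 of the 29 on other chromosomes, 44.8% (28.4 to 62.5), beside 34.5% of all tRNA genes there. Under vehicle PR was at 0 of 24 (interval up to 13.8%) and 5 of 29, 17.2%, where 4.55% and 17.5% of all tRNA genes were called. The other 376 tRNA genes were split in the same direction, at 11.5% and 33.3% under P4. The split was noticed in these data and was not tested.

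POLR3A did not divide that way in counts, being at 22 of 24 genes on chromosome 6 in each list and at 22 and 24 of 29 elsewhere, beside 82.5% of all tRNA genes on chromosome 6 in each list and 82.2% and 81.5% elsewhere. Its scores were lower on chromosome 6, with a median −log10 q of 235.9 under vehicle (5.96 to 524.8) against 523.1 elsewhere (11.6 to 629.5). The ranges overlap, and other tRNA genes gave 210.6 and 410.0. The part of POLR3A score in the PR split was not tested. With regions up to 500 bp from the gene allowed, PR under P4 was at 5 of 24 and 15 of 29 genes. At equal list length it was at 0 and 5.

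**Figure D5:**
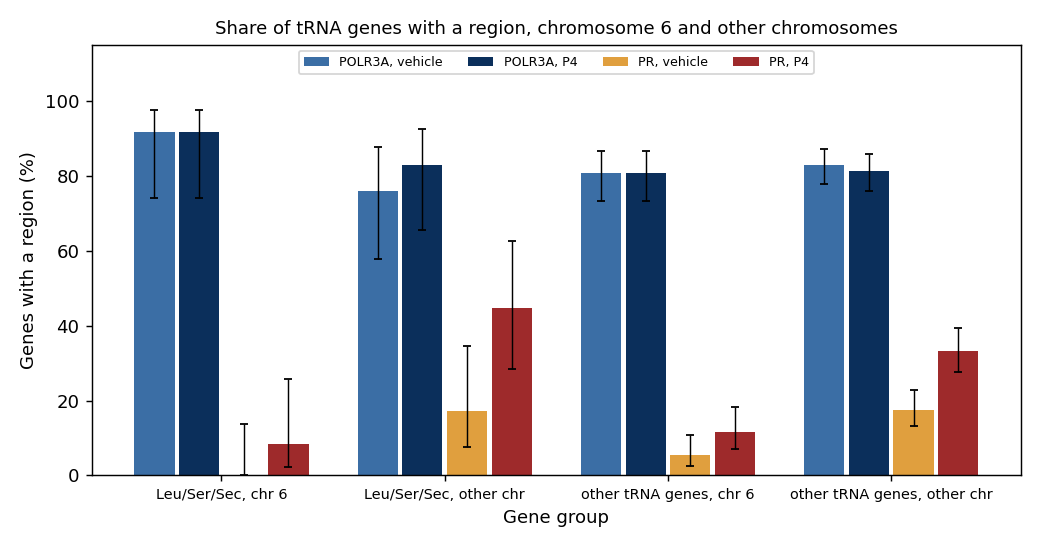
Bars give the percentage of genes with a region in each of the 4 lists, for genes on chromosome 6 and on other chromosomes, with 95% Wilson intervals as error bars that cover counting error over genes only. PR under P4 was at 8.33% of the leucine, serine and selenocysteine genes on chromosome 6 and 44.8% of those elsewhere, and at 11.5% and 33.3% of other tRNA genes.

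Genes that charge or use these tRNAs were read in the same lists, counting a region within 1 kb of either end of the gene. Of 12 listed protein-coding genes, POLR3A was near 7 under vehicle and 9 under P4, where 30.8% and 33.6% of 19821 protein-coding genes had one. PR was near 5 and 9, where 23.9% and 50.2% had one. The POLR3A values were low, 7.97 at the highest under vehicle, at LARS1, which encodes the cytosolic leucyl-tRNA synthetase. SARS1, its serine counterpart, and SSB, which encodes the La protein that binds the ends of new RNA polymerase III transcripts, had no region of either antibody.

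Among the genes listed for selenocysteine and its insertion, SEPSECS completes the conversion on the tRNA. It had the highest PR value of the 12 under P4, 51.8, and no PR region under vehicle. SEPHS2, which supplies the activated selenium, had 34.2 under P4 and none under vehicle. SECISBP2, which binds the selenocysteine insertion element of messenger RNAs, had 5.64 and 28.8, and SEPHS1 had 8.45 and 22.2. PSTK had 5.93 under P4 alone, and EEFSEC, the elongation factor for this tRNA, 5.24 under P4 alone. TRNAU1AP, which associates with the selenocysteine tRNA, was the reverse, with 4.92 under vehicle alone. Of the synthetase genes, LARS1 had PR values of 3.89 and 17.5, SARS2 4.54 and 15.9, and LARS2 3.96 under P4 alone. A PR call near these genes sits beside a background in which 50.2% of coding genes had one under P4. The share of coding genes with PR under P4 alone was not counted, and the PR list under P4 is 2.86 times as long as that under vehicle.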

How the data were processed

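PR and POLR3A were mapped by chromatin immunoprecipitation and sequencing in 14 libraries of T47D cells. Per the submitters' processing notes, cutadapt, Bowtie2 and MACS2 were used with hg38; their settings, and how replicates or inputs entered, are not given in the sources used here. The deposited values are 4 lists of regions, 1 per antibody and treatment, with a fold enrichment (a ratio), −log10 q and a summit position for each region. The highest q-value of any deposited row was 0.0497. No counts of reads were used, so depth and precision per library are unknown, and intervals cover counting error over genes only.

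Genes came from the RefSeq table of GRCh38.p14, on chromosomes 1 to 22 and X, keeping rows up to where start positions first fell back (58419 genes kept, 679 left out). It gives no strand or exons. An overlap of at least 1 bp counted, and of several regions the one with the highest −log10 q was taken. Counts equalled those of bedtools 2.31.1 in 4 of 4 lists, and the overlap code was tested on simulated data. The promoter table held 0 of the 53 genes by symbol, so the planned search of their promoters was limited to 3 windows of neighbouring genes.

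Named with values were the selenocysteine genes, the highest and lowest of each anticodon by POLR3A −log10 q under vehicle, genes with PR in both lists, and genes with POLR3A in 1 list or neither. TRS-AGA2-1, TRS-AGA2-2, TRS-AGA2-3, TRS-AGA2-4, TRS-GCT4-1, TRS-GCT4-3, TRS-TGA1-1, TRL-CAG1-6, TRL-TAA1-1, the other TRL-AAG1 and TRL-AAG2 genes and the neighbouring tRNA genes were chosen after their values were seen. Genes, lists and rules were chosen with earlier results of these data known. Python 3.11.15 and pandas 2.3.3 were used.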

Additional observations from a re-analysis of the deposited data

How the results depend on the processing

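The POLR3A counts stayed within 1.5 times of 44 and 46 under all 8 alternatives, the lowest being 32 and 35 with the summit required within 100 bp of the gene. PR counts did not. With regions under a −log10 q of 5 left out, PR was at 2 genes under vehicle and 7 under P4, with 6 under P4 alone, and under P4 at 1 gene on chromosome 6 and 6 elsewhere. With those under 10 left out they were 0 and 3, with 3 under P4 alone and 0 under vehicle alone. With the gene body and no margin, PR was at 3 genes under vehicle and 0 under vehicle alone. With 50% of the gene covered it was at 3 and 9, with 6 under P4 alone and 0 under vehicle alone. With the summit within 100 bp of the gene it was at 2 and 7, with 5 and 0 under a single treatment. With lists of equal length, PR under P4 was at 5 genes, with 2 under P4 alone and 2 under vehicle alone, 0 of the 5 on chromosome 6 and 5 elsewhere. Within 500 bp, PR under P4 was at 5 genes on chromosome 6. The alternatives for the split by chromosome were chosen after seeing the data. Higher thresholds and shorter lists leave fewer regions by construction. Ranked by fold in place of q, the median percentile of PR regions was 53.3 under vehicle and 51.3 under P4, against 36.4 and 46.5, and that of POLR3A regions 99.6 and 99.7. No paired analysis was possible because the replicates of a group share 1 list. Depth is unknown, so the number of weak PR regions that deeper libraries would give cannot be judged.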

Other observations

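The 7 TRL-CAA genes, leucine genes left out of the set, had POLR3A at 6 of 7 in each list, where the median −log10 q was 452.8 (vehicle) and 474.7 (P4). PR was at 2 of them under vehicle and 3 under P4.

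Few of the 53 genes adjoin the start of another gene. Of the 52 with a distance to a start in the RefSeq promoter table, 4 lay within 1 kb of one (TRL-CAG1-7 at HCG11, TRL-AAG2-2 at LINC01556, TRS-GCT3-1 at B4GAT1-DT and TRL-AAG2-4 at POLR3E). TRS-GCT3-1 was the 1 of these with PR within the 100 bp margin. At TRL-AAG2-2 a PR region under P4, with a −log10 q of 4.15, lay 125 bp from the gene. Among other tRNA genes, 60 of 372 lay within 1 kb of a start. Genes of the set with PR under P4 lay a median of 14.4 kb from a start (14 genes), and those with POLR3A in both lists and no PR under P4 17.1 kb (29 genes). Among other tRNA genes the medians were 5.76 kb (93 genes) and 15.4 kb (199 genes), with 26 of the 93 and 24 of the 199 within 1 kb. The difference between the sets was not tested.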
